A study of Danio rerio with 8 samples.

Results

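The genes described here encode the subunits of receptors for GABA, glycine, glutamate, acetylcholine, serotonin and dopamine, 110 of the 20958 named genes on the array. Membership was set by symbol, with earlier results of these data already known. It took in every gene whose symbol begins with gabr, glra, glrb, gria, grin1, grin2, grin3 or grik. It also took in those beginning with grm, chrn, htr or drd (chrn with any ending, the other 3 followed by a digit). RefSeq lists 128 zebrafish symbols of this kind, and the 18 with no probe matched here were not analysed here. RNA came from whole bodies of zebrafish larvae at 5 weeks after fertilization, in a model of Zellweger syndrome, the most severe peroxisome biogenesis disorder. The mutants were pex2-/- for an allele called typeC and the controls were their pex2+/+ siblings. No probe was matched to pex2 here, so the genotypes were not checked against that transcript. All fish were genotyped on tail fin DNA and raised without treatment. RNA of 3 larvae was combined in equal amounts into each sample, giving 4 pools per genotype and 8 one-colour arrays. The labels do not say whether the pools came from separate clutches, so p-values measure the spread between these pools, which may in part be technical.

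A neurotransmitter released at a synapse acts on receptors in the membrane of the receiving cell. Ion channel receptors are rings of subunits that open when the transmitter binds. GABA-A and glycine receptors pass chloride and usually quiet a neuron, whereas AMPA, NMDA and kainate receptors for glutamate and nicotinic receptors for acetylcholine pass cations and excite it. Metabotropic glutamate receptors, dopamine receptors and nearly all serotonin receptors are single proteins that signal through G proteins. One nicotinic receptor lies outside neurons, at the neuromuscular junction, where its subunits are made by skeletal muscle.

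The arrays of the 2 genotypes differed in overall brightness. The 75th percentile of spot intensity was 699 ± 108 in the sibling pools and 476 ± 24.9 in the mutant pools (SD, n = 4 each), and each value below is a log2 intensity minus that percentile of its own array. Of all probes, 74.5% to 76.3% were well above background on the sibling arrays, and 67.3% to 75.6% on the mutant arrays, where mutant pool 4 gave the lowest share. The number of arrays limits the precision. Differences are mutant minus sibling ± the moderated standard error from limma, and a gene was called higher or lower at an adjusted p of 0.05 over all probes kept. Intensities of different probes are not comparable, so levels are set against each other only within a gene, except in the marker summaries below.

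Most measurable receptor subunits were higher in the mutant pools, in every family of neuronal receptors, while the subunits of the muscle nicotinic receptor were not. Of the 110 members, 80 had a probe that stood well above background on 4 or more of the 8 arrays, and these were tested. The mutants were higher for 68 of these 80 and lower for 2, and 10 did not pass. Among all 17263 named genes tested, 29.9% were called higher and 27.8% lower, or 57.6% in either direction. The median log2 difference was 0.95 over the members and 0.01 over all named genes. With this scaling a rise of at least 2-fold was called for 35 members, against 7.1% of all genes. In 67 members every pool of one genotype lay on one side of every pool of the other, which was so for 54.6% of all genes. Because the RNA was from whole bodies, more cells of a type and more RNA per cell cannot be told apart in any of these differences. The members had to be bright enough on 4 arrays to be tested, so that a dim gene bright in 1 genotype alone could pass through that genotype. This was so for gria1b and htr6, which were well above background on no sibling array. Without them 66 of 78 were called higher, 33 by at least 2-fold. Still among those 66 were gabrg3, grik1b and grm7, well above background on 1 sibling array and 4 mutant arrays each. They too reached the 4 arrays needed through the mutants alone. Of the 67 members well above background on all 8 arrays 58 were called higher and 2 lower, where 31.8% of all genes that bright were called higher.

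**Figure D1:**
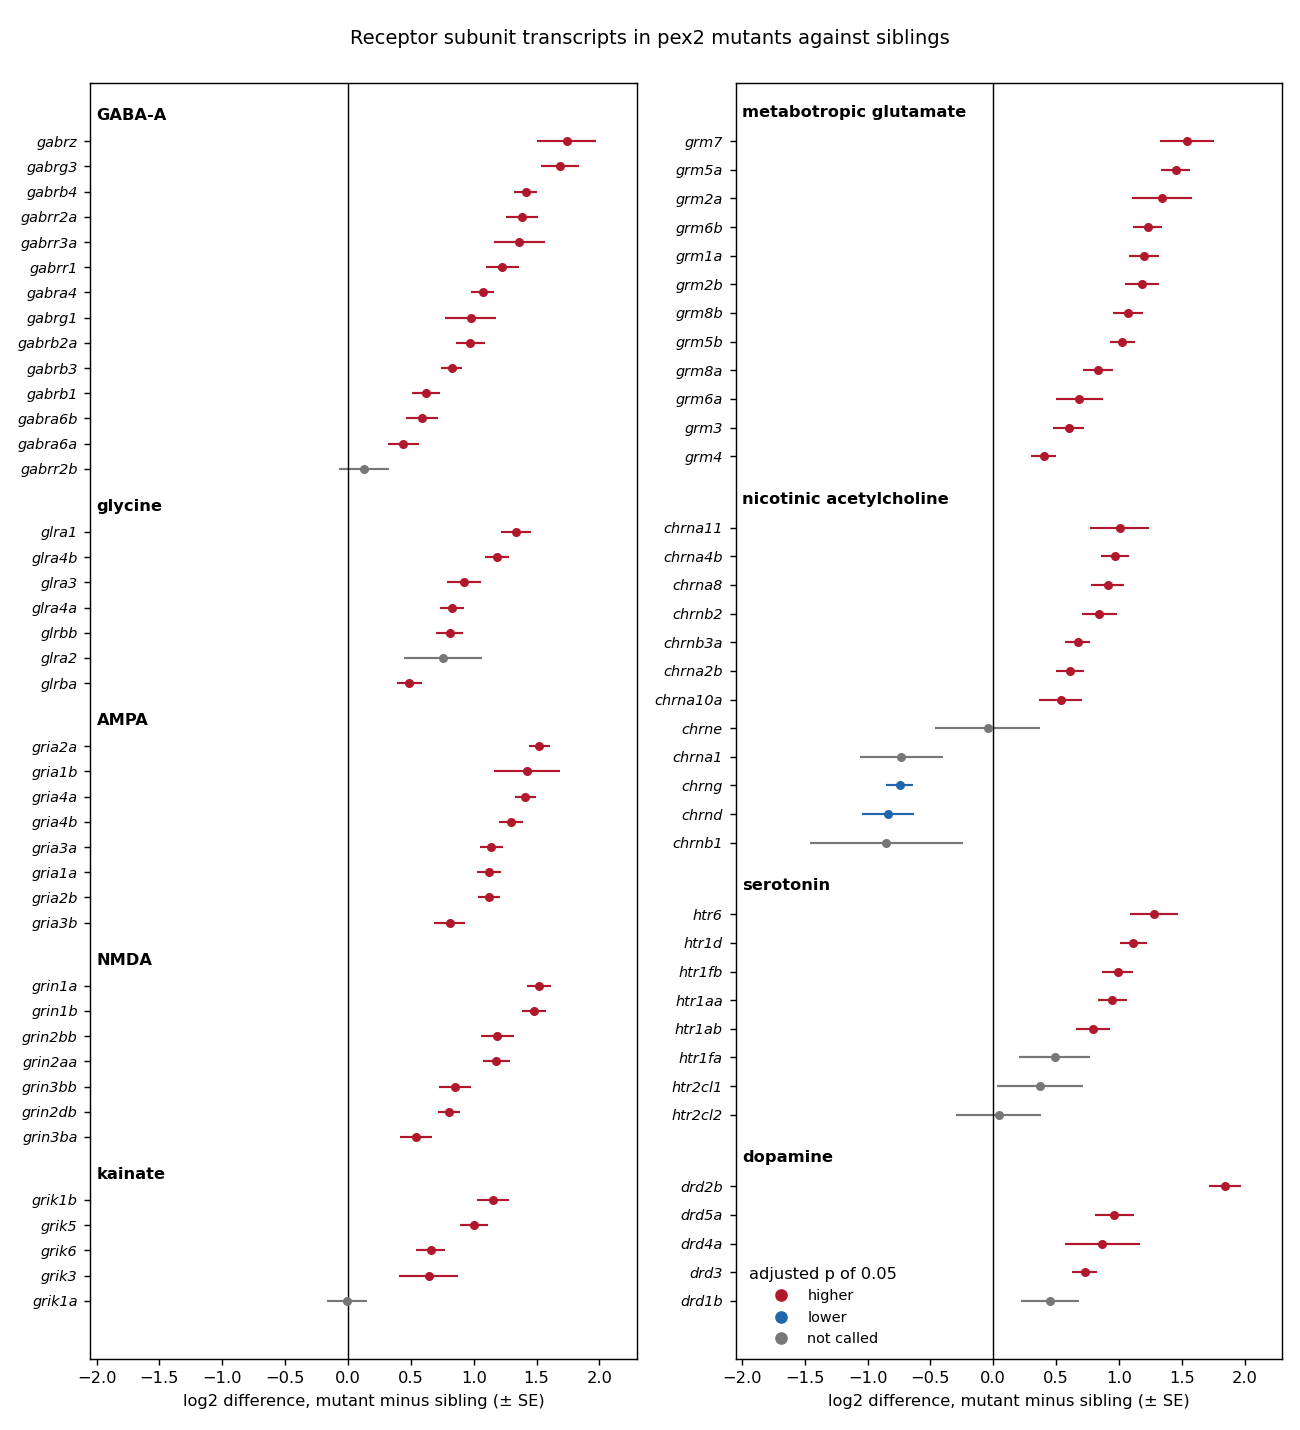
Log2 difference, mutant minus sibling, of nearly all tested receptor subunits, ordered by size within its family. Points are limma estimates from 4 pools per genotype and bars are ± 1 moderated standard error; red marks genes called higher, blue called lower and grey not called at an adjusted p of 0.05. Nearly all points lie right of 0, and only the muscle nicotinic subunits chrna1, chrnb1, chrnd and chrng lie clearly left of it.

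The number of calls depended on the way the arrays were scaled. Scaling to quantiles called 67 members higher against 30.3% of all genes, and normexp background correction 71 against 36.4%, with 24.3% of all genes lower. Without any scaling, an alternative added after the data were seen, the median of all genes moved to -0.53 and 34 members were called higher. That setting called 6.67% of all genes higher and 51.1% lower. Sizes of the differences changed as well. The median over the 75 tested members outside the muscle receptor was 0.97 in the main fit, 0.72 with normexp and 0.43 without scaling. Over all genes the median was 0.01, 0.09 and -0.53 in those settings. Fewer members rose at least 2-fold with normexp or without scaling than in the main fit. Ordered by size with normexp, grm2a at rank 17 (1.01) still reached 2-fold, and grin2bb at rank 18 (0.96) did not. Without scaling only drd2b, gabrz and gabrg3 reached it, of which gabrg3 was the smallest (1.15), and grm7 came next (0.996). The share of all genes that rose at least 2-fold was counted in the main scaling only. Of the 75 tested members outside the muscle receptor, 74 were above 0 in the scaled data and 64 without scaling, a setting that lowers all genes by the same amount. Among the 10 whose sign turned were 5 called higher in the scaled data, namely gabra6a (-0.11 without scaling), glrba (-0.06), grm4 (-0.14), grin3ba (-0.0052) and chrna10a (-0.0066). By family, the calls higher that held without scaling were 7 of 8 AMPA, 7 of 12 metabotropic glutamate, 4 of 7 NMDA, 8 of 16 GABA-A, 2 of 7 glycine and 2 of 5 kainate genes. They were 3 of 8 serotonin, 1 of 5 dopamine and 0 of 12 nicotinic genes, of which 7 lie outside the muscle receptor. Among the calls that held were those of gria1b and htr6, which were well above background on no sibling array. Also among them were gabrg3, gabrr3a, grik1b and grm7, each well above background on 1 sibling array. Both nicotinic genes called lower, chrnd (-1.38) and chrng (-1.29), were also called lower without scaling. As that setting lowers every gene, it could not have turned their sign. With normexp chrng was not called (-0.07).

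In the AMPA and NMDA receptors of excitatory transmission all tested members rose. All 8 AMPA receptor subunits, which form the channel that carries most fast glutamate current, were called higher, with a median difference of 1.22 and a range of 0.81 to 1.52. The subunit gria2a, whose relatives in mammals make the channel impermeable to calcium when edited, read 0.74, 0.71, 0.74 and 0.64 in sibling pools 1 to 4. In mutant pools 1 to 4 it read 2.31, 2.26, 2.1 and 2.24. The mutant pools lay far above the siblings and close together, a 2.87-fold rise (log2 difference 1.52 ± 0.08, adjusted p = 3.90e-05). For gria4a the sibling values were 1.57, 1.59, 1.60 and 1.67 and the mutant values 3.03, 3.02, 2.89 and 3.14. Again the genotypes did not overlap, and the difference was 1.41 ± 0.09 (adjusted p = 4.53e-05). Its partner gria4b read 0.80, 0.78, 0.84 and 0.88 in the siblings and 2.01, 2.1, 2.04 and 2.34 in the mutants (1.30 ± 0.10, adjusted p = 6.33e-05). With the probes used, the smallest rise of the family was that of gria3b (0.81 ± 0.12), and gria1a, gria2b and gria3a lay between 1.12 and 1.14. Other kept probes of gria3b gave 0.50 ± 0.30, which did not pass (adjusted p = 0.181), and 1.38 ± 0.15. Those of gria4b gave 0.93 ± 0.45, which did not pass (adjusted p = 0.107), and 1.32 ± 0.09. The gene gria1b was well above background on 0 of 4 sibling arrays and on all 4 mutant arrays, so that it was tested only through the mutants, and 7 of 7 were called higher without it. Only a bound on the scaled values can therefore be given for it, a level at least 2.59-fold higher in the mutants, which was not itself tested. The measured means were -5.16 in siblings and -3.74 in mutants (adjusted p = 0.00218 in the limma fit of the measured values). With normexp its difference was 0.67 on the log2 scale, which is below that bound, so the bound did not hold under that background correction.

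NMDA receptors, which need both glutamate and a co-agonist to open and pass calcium, were built of 7 tested subunits, all called higher (median 1.18, range 0.54 to 1.52). The obligatory subunit GluN1 is encoded by a pair of genes in zebrafish. One of them, grin1a, read -2.19, -2.02, -1.90 and -2.05 in the siblings and -0.54, -0.47, -0.43 and -0.65 in the mutants. The other, grin1b, read 2.32, 2.36, 2.25 and 2.36 in the siblings and 3.78, 3.87, 3.62 and 3.94 in the mutants. Both rose by nearly the same amount with no overlap between genotypes, by 1.52 ± 0.10 (adjusted p = 4.66e-05) and 1.48 ± 0.10 (adjusted p = 4.69e-05). Of the GluN2 subunits, which bind glutamate and set the channel's kinetics, grin2aa read -0.57, -0.44, -0.54 and -0.36 in the siblings. It read 0.49, 0.65, 0.83 and 0.84 in the mutants, all above 0 where all siblings were below it (1.18 ± 0.11, adjusted p = 1.09e-04). The related grin2bb (1.19 ± 0.13) and grin2db (0.80 ± 0.09) were also called higher. The GluN3 subunits grin3ba (0.54 ± 0.13) and grin3bb (0.85 ± 0.13), which in mammals lower the calcium permeability of the receptor, were called higher too. The GluN2 gene grin2da was well above background on 1 array and was not tested.

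Kainate receptors, the third kind of glutamate-gated channel, moved less evenly. Of 5 tested subunits 4 were called higher and 1 did not pass, with a median of 0.66. The subunit grik5, of the type that joins others but forms no channel alone in mammals, read -1.42, -1.40, -1.26 and -1.17 in the siblings. Its mutant values were -0.26, -0.39, -0.48 and -0.12, above all siblings (1.00 ± 0.11, adjusted p = 2.04e-04). For grik6 the siblings read 0.01, 0.08, 0.22 and 0.26 and the mutants 0.82, 0.56, 0.84 and 0.97, again with no overlap (0.66 ± 0.11, adjusted p = 0.00166). The values of grik1b were -4.80, -5.29, -5.01 and -5.23 in the siblings, where 1 array of 4 was well above background, and -4.00, -3.83, -3.85 and -4.03 in the mutants. The mutants were higher throughout (1.15 ± 0.13, adjusted p = 2.07e-04), but with normexp background correction the difference shrank to 0.65. By contrast grik1a read 0.49, 0.18, -0.20 and -0.15 in the siblings and 0.09, 0.17, 0.01 and 0.03 in the mutants. Its sibling pools spanned the mutant pools, and it did not pass (-0.01 ± 0.16, adjusted p = 0.975). This was the brightest of its 5 kept probes, which ranged from -0.37 to 0.51, and 1 of the others was called higher (0.46 ± 0.10, adjusted p = 0.00517). The call of grik3 (0.64 ± 0.23, adjusted p = 0.0432) was lost on leaving out any 1 array other than that of sibling pool 3, with an adjusted p up to 0.104.

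All 12 tested metabotropic glutamate receptors were called higher, with a median of 1.13 and a range of 0.40 to 1.54. The 3 receptors of group I, which in mammals couple to phospholipase C and sit mostly on the receiving side of the synapse, were grm1a (1.2 ± 0.12), grm5a and grm5b. For grm5a the siblings read -3.92, -3.82, -3.72 and -4.06 and the mutants -2.34, -2.53, -2.27 and -2.57. Its partner grm5b read -4.41, -4.55, -4.25 and -4.51 in the siblings and -3.38, -3.44, -3.50 and -3.29 in the mutants. Neither gene overlapped between genotypes, with differences of 1.45 ± 0.11 (adjusted p = 7.16e-05) and 1.02 ± 0.10 (adjusted p = 1.32e-04). With normexp the differences were 0.88 and 0.66. Group II, whose members lower cyclic AMP, had grm2a (1.34 ± 0.24), grm2b (1.19 ± 0.14) and grm3 (0.60 ± 0.12). In group III, grm6b is known as the glutamate receptor of retinal ON bipolar cells. It read -2.83, -2.86, -2.73 and -2.97 in the siblings and -1.40, -1.52, -1.81 and -1.76 in the mutants, well apart (1.23 ± 0.12, adjusted p = 1.25e-04). The presynaptic receptor grm7 read -5.39, -5.59, -6.05 and -5.66 in the siblings, with 1 array of 4 well above background. In the mutants it read -4.55, -3.61, -4.22 and -4.14, above every sibling (1.54 ± 0.22, adjusted p = 5.88e-04), and the difference was 0.74 with normexp. The smallest rise of the family was that of grm4 (0.40 ± 0.10, adjusted p = 0.00874). The call of grm8b was lost with the mean of its 2 probes (0.43, adjusted p = 0.349).

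Of the inhibitory receptors, GABA-A subunits were called higher in 15 of 16 cases, with a median of 1.02 and a range of 0.12 to 1.74. The beta subunits, which with alpha subunits form the GABA site, included gabrb4 at 0.29, 0.28, 0.35 and 0.48 in the siblings. It read 1.74, 1.77, 1.64 and 1.89 in the mutants, a 2.66-fold rise with no overlap (1.41 ± 0.09, adjusted p = 4.78e-05). The other 3 beta genes were called higher by 0.62 to 0.97. Among 4 alpha genes, gabra4 read -0.21, -0.24, -0.20 and -0.14 in the siblings and 0.91, 1.03, 0.76 and 0.79 in the mutants. The pools of each genotype were close together and far from the other (1.07 ± 0.09, adjusted p = 8.83e-05). The alpha subunits gabra6a (0.44 ± 0.12) and gabra6b (0.59 ± 0.12), of a type found in cerebellar granule cells in mammals, were called higher too. Gamma subunits place the receptor at synapses in mammals, and gabrg3 read -5.90, -5.20, -5.50 and -5.63 in the siblings, where 1 array of 4 was well above background. It read -3.88, -3.73, -4.01 and -3.85 in the mutants, higher throughout (1.69 ± 0.15, adjusted p = 1.03e-04). With normexp this difference was 0.78.

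With the probes used, the largest difference of the GABA-A family was that of gabrz, named as a zeta subunit. It read -2.33, -3.17, -2.56 and -2.04 in the siblings and -0.70, -0.99, -0.91 and -0.54 in the mutants. Although the siblings were more spread out than for most members, the genotypes stayed apart (1.74 ± 0.23, adjusted p = 4.84e-04). The rho subunits form GABA receptors that are best known from the retina. Of these, gabrr1 (1.23 ± 0.13), gabrr2a (1.39 ± 0.13) and gabrr3a (1.36 ± 0.20) were called higher and gabrr2b was not (0.12 ± 0.20, adjusted p = 0.614). A second probe of gabrr2a gave 1.82 ± 0.15 (adjusted p = 8.06e-05), above the value of gabrz. The probe of gabrr3a was well above background on 1 of 4 sibling arrays and 3 of 4 mutant arrays, and its difference was 0.70 with normexp. The siblings read -1.14, -1.32, -1.64 and -1.61 for gabrr2b and the mutants -1.41, -0.78, -1.40 and -1.62, so only mutant pool 2 was above all siblings.

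Glycine receptors, which carry fast inhibition in the spinal cord and hindbrain, had 6 of 7 subunits called higher, with a median of 0.83. The alpha subunit glra1 read -2.07, -1.76, -1.97 and -1.72 in the siblings and -0.71, -0.45, -0.41 and -0.61 in the mutants. The genotypes were well separated, a 2.52-fold rise (1.34 ± 0.12, adjusted p = 9.49e-05). The alpha subunit glra4b read -3.73, -3.95, -3.80 and -3.87 in the siblings and -2.68, -2.47, -2.74 and -2.70 in the mutants. It was higher by 1.19 ± 0.10 (adjusted p = 7.88e-05), or by 0.79 with normexp. Its partner glra4a read -2.44, -2.32, -2.22 and -2.27 in the siblings and -1.45, -1.61, -1.56 and -1.33 in the mutants (0.83 ± 0.10, adjusted p = 2.73e-04). The beta subunits bind gephyrin, the scaffold that holds the receptor at the synapse, and both glrba (0.49 ± 0.10) and glrbb (0.81 ± 0.11) were called higher. The alpha subunit glra2, a form of early development in mammals, did not pass (0.75 ± 0.31, adjusted p = 0.0639), while its second probe did (0.65 ± 0.23, adjusted p = 0.0399).

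Serotonin receptors were the family with most members out of reach, since 8 of 19 were tested. Of the 8, 5 were called higher and 3 did not pass, with a median of 0.87. The inhibitory type 1 receptor htr1d read -1.97, -1.82, -1.97 and -1.72 in the siblings and -0.65, -0.68, -0.95 and -0.74 in the mutants, which were all higher (1.11 ± 0.10, adjusted p = 1.18e-04), while its second probe did not pass (0.45 ± 0.20, adjusted p = 0.0816). For htr1aa, of the type that acts as autoreceptor on serotonin neurons in mammals, the siblings read -1.61, -1.43, -1.38 and -1.33. The mutants read -0.55, -0.61, -0.57 and -0.22, above the siblings, with mutant pool 4 apart from the other 3 (0.95 ± 0.12, adjusted p = 3.31e-04). The values of htr1fb were -3.07, -2.96, -2.87 and -3.06 in the siblings and -1.77, -2.09, -1.89 and -2.25 in the mutants (0.99 ± 0.12, adjusted p = 3.39e-04). The G protein-coupled receptor htr6 was well above background on 0 of 4 sibling arrays and 4 of 4 mutant arrays, so that it too was tested only through the mutants, and 4 of 7 were called higher without it. On the scaled values its bound was a level at least 2.30-fold higher in the mutants, which was not itself tested. The measured means were -5.46 in siblings and -4.18 in mutants (adjusted p = 7.76e-04 in the limma fit of the measured values). With normexp its difference was 0.66 on the log2 scale, below that bound, which did not hold under that background correction. The type 2C genes htr2cl1 (0.37 ± 0.34) and htr2cl2 (0.04 ± 0.34) and the type 1 gene htr1fa (0.49 ± 0.28) did not pass. A second probe of htr2cl1 was called higher (0.87 ± 0.13, adjusted p = 7.79e-04).

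Of 10 dopamine receptors on the array 5 were tested, and 4 of these were called higher (median 0.87). The D2-type receptor drd2b, which inhibits adenylyl cyclase, showed the largest difference of all 80 members. It read -3.57, -3.82, -4.10 and -3.89 in the siblings and -1.94, -1.86, -2.1 and -2.1 in the mutants. Every mutant pool was above every sibling pool, a 3.59-fold rise (1.84 ± 0.13, adjusted p = 5.31e-05), and the difference was 1.2 with normexp, where it ranked 10 among the members. The D1-type receptor drd5a, which stimulates adenylyl cyclase, read -3.65, -4.20, -4.23 and -3.99 in the siblings and -3.25, -3.14, -3.0 and -2.82 in the mutants (0.96 ± 0.16, adjusted p = 0.00118). The other D1-type gene tested, drd1b, did not pass (0.45 ± 0.23, adjusted p = 0.126). The D2-type drd3 read -0.76, -0.85, -0.60 and -0.74 in the siblings and 0.08, -0.19, 0.01 and 0.07 in the mutants with the probe used for it. The genotypes did not overlap there (0.73 ± 0.10, adjusted p = 5.14e-04), but its second probe gave -0.12 ± 0.15, and the mean of both probes did not pass (0.30, adjusted p = 0.0566). The call of drd4a (0.87 ± 0.30, adjusted p = 0.0359) was lost without sibling pool 1, 3 or 4 or without mutant pool 1, 2 or 4, with an adjusted p up to 0.0843.

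**Figure D2:**
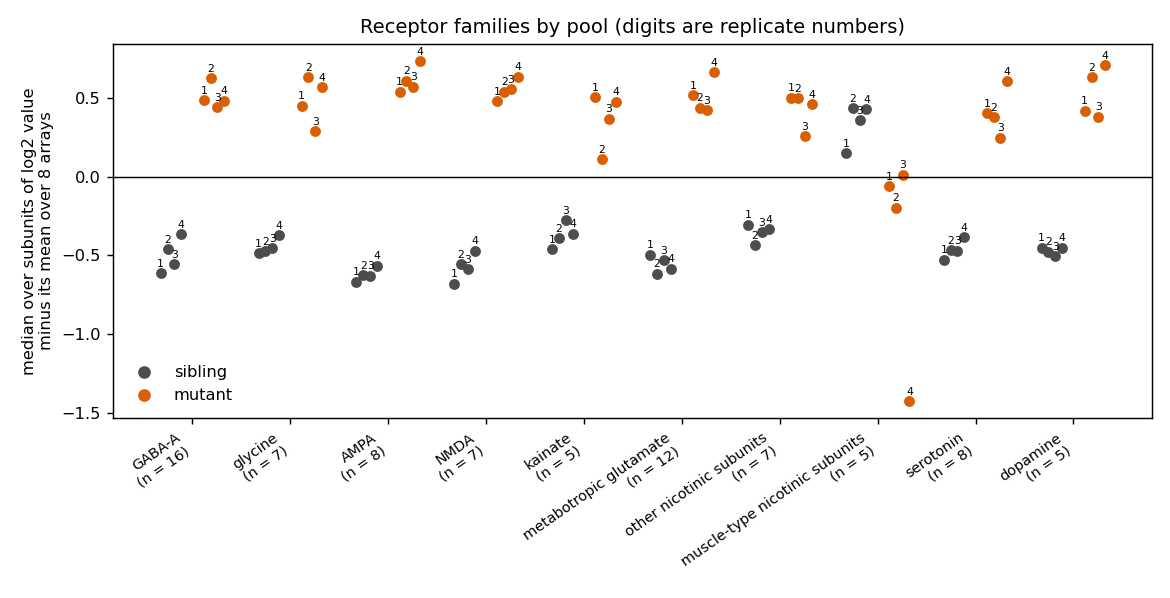
For each family, the median over its tested subunits of the log2 value minus that subunit's mean over the 8 arrays, 1 point per pool; digits are replicate numbers, grey siblings and orange mutants. In every group but the muscle-type nicotinic subunits all 4 mutant pools lie above 0 and all 4 sibling pools below it.

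Nicotinic acetylcholine receptors were the one family whose members went both ways, and the 2 that went down belong to the muscle receptor. Of 12 tested subunits 7 were called higher, 2 lower and 3 did not pass. The 7 subunits outside the muscle receptor were all called higher, with a median of 0.84 and a range of 0.54 to 1.00. Among them chrna4b, which with chrnb2 forms the commonest brain receptor in mammals, read -3.06, -3.11, -2.87 and -2.97 in the siblings. It read -2.02, -1.99, -2.28 and -1.86 in the mutants, all above the siblings (0.97 ± 0.11, adjusted p = 2.73e-04). The alpha subunit chrna8 read -1.12, -1.39, -1.58 and -1.56 in the siblings and -0.38, -0.43, -0.70 and -0.50 in the mutants (0.91 ± 0.13, adjusted p = 6.64e-04). The partner chrnb2 was higher by 0.84 ± 0.14. The call of chrna10a, of a type known from mammalian hair cells, had the largest adjusted p of the 7 with the probe used (0.54 ± 0.17, adjusted p = 0.0256) and was lost without sibling pool 2 or 3 (adjusted p up to 0.0700). Its second probe gave 0.57 ± 0.09 (adjusted p = 9.80e-04).

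The 5 tested subunits of the muscle receptor gave 0 calls higher, 2 lower and 3 that did not pass, with a median of -0.74. The median was -0.38 without mutant pool 4 and -0.07 with normexp. The gamma subunit chrng, which belongs to the fetal form of the receptor in mammals, read -3.36, -3.64, -3.31 and -3.53 in the siblings and -4.21, -4.12, -4.35 and -4.15 in the mutants. It was lower in every mutant pool (-0.74 ± 0.11, adjusted p = 6.39e-04), but not called with normexp (-0.07, adjusted p = 0.421). The delta subunit chrnd read -0.46, -0.22, -0.39 and -0.24 in the siblings and -1.09, -1.06, -0.74 and -1.78 in the mutants. Here too all mutants were below all siblings (-0.84 ± 0.21, adjusted p = 0.00859), and without mutant pool 4 the difference was -0.64 ± 0.12 (adjusted p = 0.00357). For the alpha subunit chrna1, which holds the acetylcholine site, the siblings read -0.33, -0.02, -0.11 and 0.10 and the mutants -0.52, -0.65, -0.23 and -1.88. Mutant pool 4 was far below the other 3, and the difference of -0.73 ± 0.33 did not pass (adjusted p = 0.0868). It passed without mutant pool 3 (-0.93, adjusted p = 0.0465), and without mutant pool 4 it was -0.38 (adjusted p = 0.0536).

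The beta and epsilon subunits hung on the same pool. For chrnb1 the siblings read -4.23, -3.69, -3.94 and -3.95 and the mutants -3.95, -3.85, -4.54 and -6.86, where the last was not well above background. The difference was -0.85 ± 0.61 (adjusted p = 0.262) with mutant pool 4 and -0.16 without it. The epsilon subunit chrne, which replaces gamma in the adult receptor of mammals, read -0.07, 0.24, -0.00 and -0.16 in the siblings and 0.51, 0.57, 0.21 and -1.45 in the mutants. Mutant pools 1 and 2 were above all siblings, pool 3 was among them and pool 4 far below. With all pools the difference was -0.05 ± 0.42 (adjusted p = 0.934), and without mutant pool 4 chrne was called higher, by 0.42 ± 0.14 (adjusted p = 0.0293; 30.7% of all genes were called higher and 29.1% lower in that setting). The sixth gene of this kind, chrnb1l, was not well above background on any array.

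Markers of skeletal muscle were also low in mutant pool 4. The mean over 33 muscle markers was 4.33 to 4.66 in the sibling pools, 4.41 to 4.61 in mutant pools 1 to 3 and 3.02 in mutant pool 4. Of the markers 2 were called higher and 3 lower, and 28 did not pass, where 29.9% of all genes were called higher and 27.8% lower. All 33 on the array passed the background filter. Their summed scaled intensity ranged from 2706 to 3607 in siblings. It was 1891 in mutant pool 4 and 3790 to 3877 in the other mutant pools, above every sibling pool. Relative to the marker mean of the same array, 0 of the 5 subunits were called in either direction, where 18.1% of all genes were called higher and 7.01% lower. The differences ranged from -0.43 ± 0.43 for chrnb1 to 0.38 ± 0.43 for chrne. Without mutant pool 4, chrnd (-0.58 ± 0.12, adjusted p = 0.00470) and chrng (-0.70 ± 0.19, adjusted p = 0.0148) were called lower relative to muscle, where 28.2% of all genes were called higher and 22.5% lower. The values of chrna1 (-0.32 ± 0.13, adjusted p = 0.0619) and chrne (0.48 ± 0.18, adjusted p = 0.0541) did not pass in that setting. With array weights 1 of the 5 was called higher and 3 lower relative to muscle, where 36.9% of all genes were called higher and 21.7% lower.

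**Figure D3:**
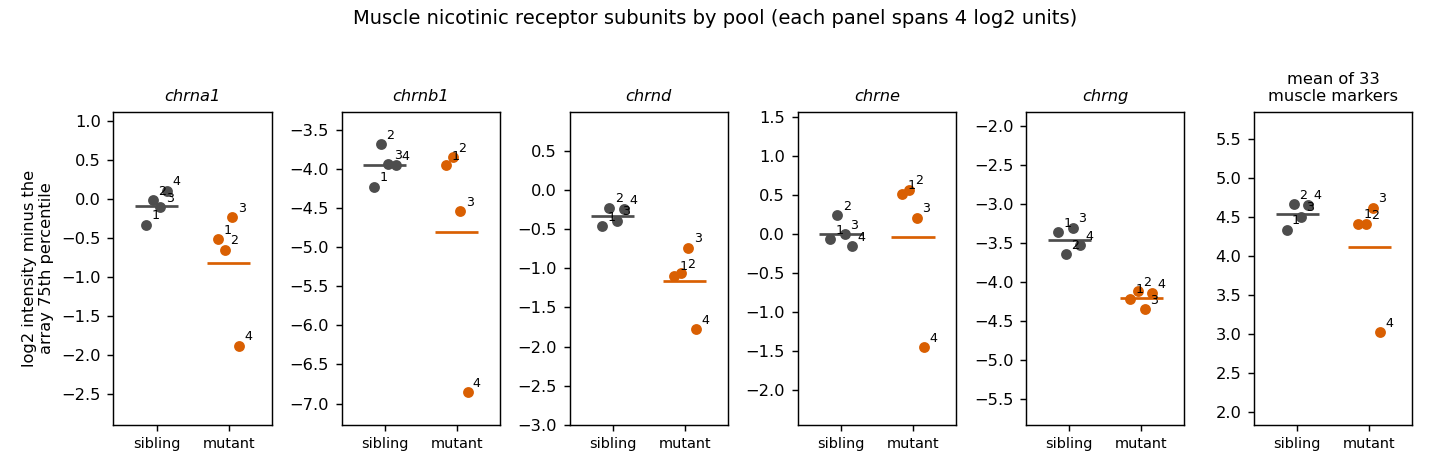
Log2 intensity minus the array's 75th percentile in each pool for 5 muscle nicotinic receptor subunits and, in the last panel, the mean of 33 skeletal muscle markers; digits are replicate numbers, bars are group means, and every panel spans 4 log2 units. Mutant pool 4 is far below the other mutant pools in chrna1, chrnb1, chrne and the marker mean, but not in chrng, whose 4 mutant pools lie between -4.35 and -4.12. In chrnd mutant pool 4 is also the lowest mutant pool, by a smaller gap.

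Most markers of neurons were also higher in the mutants. Of 34 pan-neuronal markers on the array 32 were tested, with 23 called higher, 3 lower and 6 that did not pass, where 29.9% of all genes were called higher. Their median difference was 0.71. Their summed scaled intensity was 143 to 161 in the sibling pools and 221 to 287 in the mutant pools. The lower ones were the neurofilament genes nefla (-0.47 ± 0.13) and neflb (-0.55 ± 0.19) and the synuclein sncga (-0.51 ± 0.10). Of 12 glial markers 2 were called higher and 3 lower, with a summed intensity of 128 to 146 in siblings and 125 to 224 in mutants. Of 34 photoreceptor and retinal markers 15 were called higher and 3 lower, with sums of 531 to 567 and 542 to 698. Left out were 2 neuronal, 2 glial and 3 retinal markers on the array that did not pass the background filter. The part of glial and retinal cells in the receptor differences was not tested.

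The receptor subunits were therefore also set against the neuronal markers on the same array. The mean over the 32 markers was 1.34 ± 0.07 in the siblings and 1.97 ± 0.12 in the mutants (SD, n = 4 each), and it was subtracted from every gene before the fit. On this scale 37 of 80 members were called higher and 4 lower, where 6.57% of all genes were called higher and 59.9% lower. The median was 0.33 over the members and -0.61 over all genes. The families differed in their counts, with 7 of 8 AMPA, 8 of 12 metabotropic glutamate, 9 of 16 GABA-A and 4 of 7 NMDA genes higher. Among glycine receptors 2 of 7 were higher, among kainate receptors 2 of 5 and among serotonin receptors 3 of 8. Among dopamine receptors 1 of 5 were higher and among nicotinic receptors 1 of 12, or 1 of the 7 outside the muscle receptor. Counted as higher here was gria1b, which was well above background on no sibling array. So were gabrg3, gabrr3a, grik1b and grm7, each well above background on 1 sibling array. The largest rises on this scale were those of drd2b (1.22), gabrz (1.12), gabrg3 (1.07), grm7 (0.92) and grin1a and gria2a (both 0.90). Of these, gabrg3 and grm7 were well above background on 1 of 4 sibling arrays. With normexp and without subtracting the markers, their differences were 0.78 and 0.74, against 1.69 and 1.54 in the main fit. The 4 lower members were chrna1, chrnd, chrng and grik1a, the last at -0.63.

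This result depended on how the markers were summarised. The median of the markers' own differences was 0.71. A different median was used here, that of the levels of the same 32 markers on each array, which ranks unlike probes by intensity. This array median differed by 1.02 between genotypes, more than the mean of the levels did (0.62). Relative to the array median 9 members were called higher and 18 lower, against 1.28% and 78.8% of all genes (80.1% in either direction). The 9 were drd2b, gabrz, gabrg3, gria2a, gria4a, grin1a, grin1b, gabrb4 and grm5a, all of which were also higher relative to the mean. Of these, gabrg3 was well above background on only 1 sibling array. Normexp and the other settings were not run relative to the array median. Of the 18 lower members 4 were muscle subunits. The others included both gabra6 genes, glrba, grik6, grm3 and grm4.

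**Figure D4:**
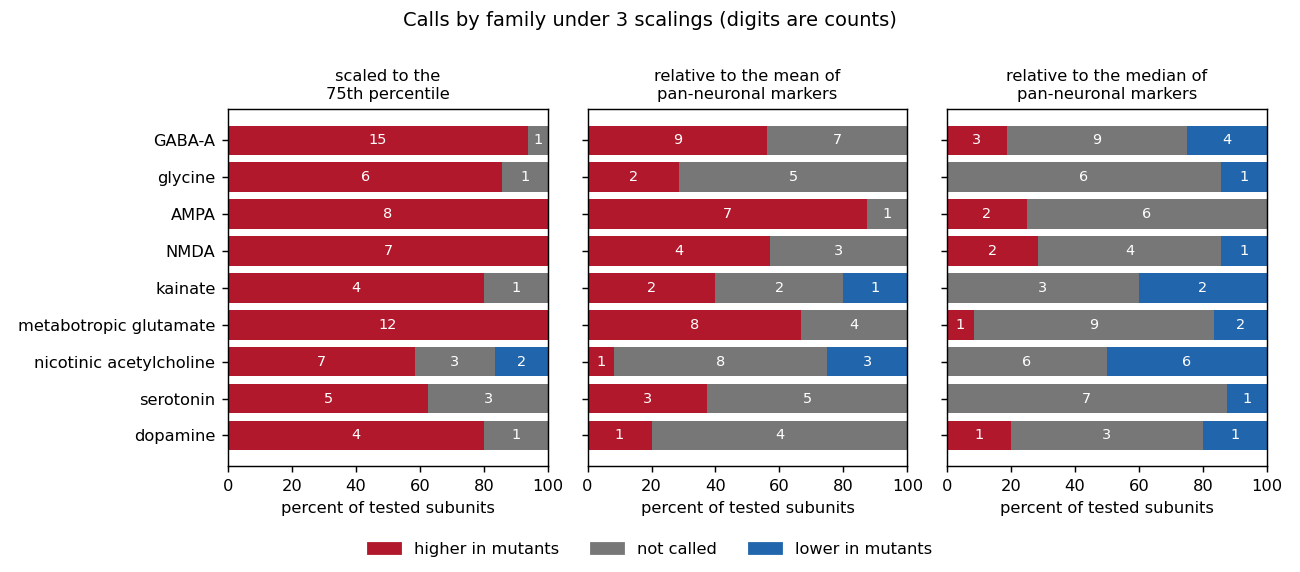
Percent of the tested subunits of each family called higher (red), not called (grey) or lower (blue) at an adjusted p of 0.05, with values scaled to the 75th percentile of the array, to the mean of pan-neuronal markers or to their median; digits are numbers of subunits. The red share is smaller in the last panel than in the first in every family, going from 8 to 7 to 2 of 8 in AMPA receptors and from 7 to 1 to 0 of 12 in nicotinic receptors. Of those 12, 5 belong to the muscle receptor.

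Many zebrafish receptor genes exist as pairs whose names differ by a final a or b, and all such pairs with both genes tested were compared. With htr2cl1 and htr2cl2, and chrng and chrne, this made 19 pairs. In 14 pairs both genes were called higher, where 68 of all 80 tested members and 29.9% of all genes were. With so many members higher, this count does not show whether partners moved together. The difference between the 2 genes was taken within each array and compared between genotypes by exact two-sided permutation. After Benjamini-Hochberg adjustment over 19 pairs, 0 passed; 5 reached the smallest p that 4 against 4 pools allow (0.0286, adjusted p = 0.109), and at least 11 would have had to reach it for any to pass. The widest of these were gabrr2a minus gabrr2b (1.26 ± 0.22) and grik1a minus grik1b (-1.16 ± 0.15), the latter with the 1 probe of grik1a that was brightest of 5 with unlike values. The others were grm6a minus grm6b (-0.54 ± 0.14), gria2a minus gria2b (0.40 ± 0.07) and glrba minus glrbb (-0.32 ± 0.13). For grin1a and grin1b the difference was 0.04 ± 0.14 (exact permutation p = 0.800). A probe may also bind RNA of the partner gene, and this was not tested.

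**Figure D5:**
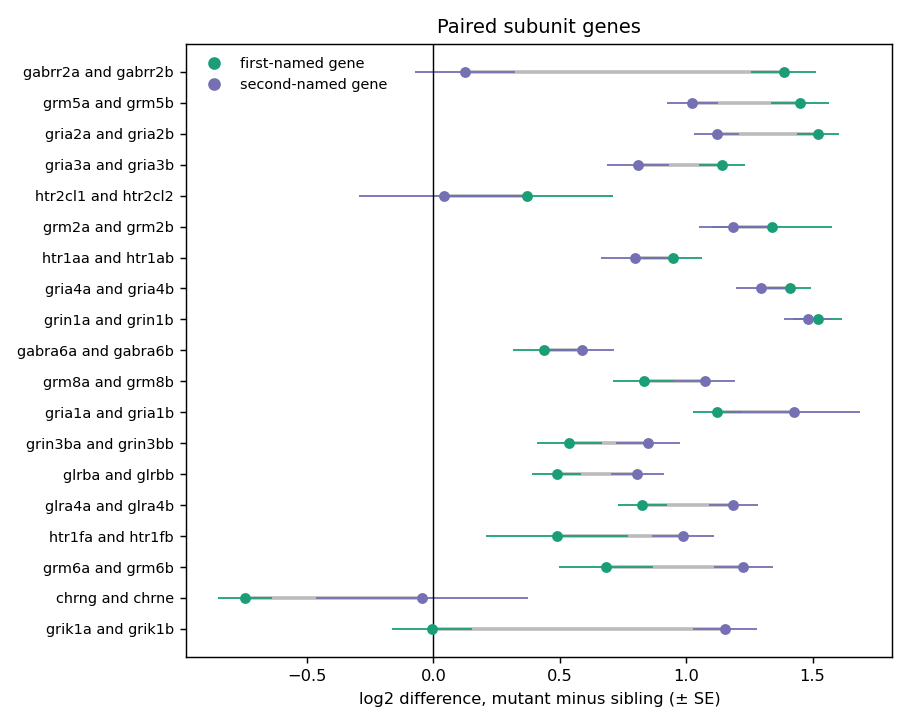
Log2 difference, mutant minus sibling, of the genes of 19 pairs, with the first-named gene in green and the second in violet; points are limma estimates from 4 pools per genotype, bars ± 1 moderated standard error, and a grey line joins the genes of a pair. The widest gaps are those of gabrr2a and gabrr2b and of grik1a and grik1b, where 1 gene lies near 0 and the other above 1.

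Of the 30 members not tested, 21 were not well above background on any array, and the rest on at most 3. They were 11 serotonin, 9 nicotinic, 5 dopamine and 2 GABA-A genes and 1 each of the NMDA, kainate and metabotropic families. Among the nearest to passing, htr7 read -6.22, -5.54, -5.76 and -5.69 in the siblings, with 0 arrays well above background. It read -4.65, -4.51, -4.32 and -4.64 in the mutants, with 3. Fitted with no filter on dim probes, 14 of the 30 were called higher and 16 were not called, where 26.4% of all genes were called higher and 22.4% lower. Dim probes were shifted on this scale as well. The log2 of the 75th percentile differed by -0.54, mutant minus sibling. Subtracting it raises every probe, dim or bright, by the same amount in the mutants relative to the siblings. Over the 6800 probes well above background on no array, the median scaled difference was 0.41, and without scaling it was -0.14. How much of the rise of tested members of weak signal comes from such a shift was not tested. Among these, grin3ba (0.54), grik3 (0.64) and grm6a (0.68) rose by amounts not far above 0.41. The median over the 30 untested members was 0.58, and the calls among them were not counted in any total above.

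Several members were measured by more than 1 probe. Of the 25 members with at least 2 kept probes, the probes of 8 differed in their call and those of 0 were called in opposite directions. The median spread between probes was 0.40 and the largest 1.29, for grm8b, where the probe used gave 1.07 ± 0.12 and the other -0.21 ± 0.78. Among the 68 members called higher, the highest value of all arrays lay in mutant pool 4 for 31, in pool 2 for 19, in pool 1 for 12 and in pool 3 for 6.

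Of 44 tested genes for proteins that anchor, assist or assemble receptors 36 were called higher, 1 lower and 7 did not pass, where 29.9% of all genes were called higher. Their median difference was 0.94. Among them were shisa7b (1.42 ± 0.10), an auxiliary subunit of synaptic receptors, the scaffold dlg2 (1.38 ± 0.10) and the AMPA receptor binding protein grip1 (1.05 ± 0.08). Its relative grip2a was lower (-1.57 ± 0.26, adjusted p = 0.00134). Gephyrin, the anchor of glycine and GABA-A receptors, was higher for both gphna (0.65 ± 0.09) and gphnb (0.93 ± 0.09). At the neuromuscular junction, the receptor-clustering kinase musk (-0.04 ± 0.45) and its activator agrn (0.33 ± 0.15) did not pass, and dok7b, which activates the kinase from inside, was higher (0.73 ± 0.16). These junction genes and gephyrin were picked out after their values were seen.

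Genes that make, load or clear the transmitters were more mixed. Of 45 tested, 25 were called higher and 7 lower, with a median of 0.58, where 29.9% of all genes were called higher and 27.8% lower. The GABA-synthesising enzyme gad1b (1.46 ± 0.10), the GABA transporter slc6a1b (1.21 ± 0.10) and tyrosine hydroxylase th (1.27 ± 0.11), the first enzyme of dopamine synthesis, were higher. The lower genes of smallest adjusted p were the tryptophan hydroxylases tph1b (-1.96 ± 0.30) and tph1a (-1.52 ± 0.26), which start serotonin synthesis, largely outside the brain in mammals, and the glutamate transporter slc1a1 (-0.70 ± 0.17). The brain form tph2, picked out after its value was seen, was higher (0.84 ± 0.16). On the acetylcholine side, also picked out afterwards, the choline acetyltransferase chata (1.40 ± 0.17) and the choline transporter slc5a7a (1.71 ± 0.31) were higher and acetylcholinesterase ache did not pass (0.12 ± 0.14).

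Receptors of the same transmitters outside the 9 families numbered 7 tested genes, with 6 called higher, 1 lower and a median of 0.98. Of all genes, 29.9% were called higher and 27.8% lower. The 7 included the muscarinic receptor chrm4a (1.06 ± 0.13). The muscarinic receptor chrm3a, which acts in glands and smooth muscle in mammals, was lower (-0.75 ± 0.16, adjusted p = 0.00433).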

How the data were processed

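The deposited scanner files hold spot intensity per array, from which Agilent Feature Extraction had subtracted background (the tool per the submitters' processing notes, its version 10.7.3.1 per the file headers), with flags for background, saturation and outliers. The deposited series matrix holds log2 values scaled to each array's 75th percentile and centred on each probe's median, which was found by matching it to the scanner values (99.4% to 99.5% of values within 0.01). It was used as an alternative.

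Of 61657 spots that were not controls, 1099 outlier spots over 8 arrays were left out, and 0 were saturated. Log2 intensity minus the 75th percentile was used. The 29935 of 39749 probes that passed the background flag on 4 or more arrays were kept. Probes were named from their RefSeq accessions (61.8% matched), and the brightest probe stood for its gene. Mutants were tested against siblings with limma 3.58.1 (lmFit, eBayes, two-sided; R 4.3.3), with Benjamini-Hochberg adjustment over all probes kept. The fit was tested on simulated data.

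A gene below background on all arrays of 1 genotype got a bound. There the dim genotype's value on each array was raised to the lowest value well above background on that array, unless it was already higher. Members and lists were chosen with earlier results of these data known. Pool values are given for up to 3 members of smallest adjusted p per family, members called against their family, muscle nicotinic subunits and the 5 largest changes each way, and for others chosen after their values were seen. Up to 3 genes in each direction are named in other lists. A few genes that enter the counts are not reported here by name.

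Other settings tried were normexp with an offset of 50 (on spot medians, as spot means were not used here), other scalings and filters, other fits, the deposited table and each array left out. Same-numbered pools did not deviate together (correlations of deviations 0.18, 0.10, -0.02 and -0.02), so replicate numbers were not taken as pairs. No sequence or coordinate is given, since the files name an older genome build.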

Additional observations from a re-analysis of the deposited data

Results flagged for a closer look

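Of 66 groups of 4 pools (33 members in each genotype), 1 held a pool whose gap to the nearest other, as a share of the group's whole range, passed Dixon's critical value for 4 samples. The serotonin receptor htr1aa, with a share of 0.844, read -0.22 in mutant replicate 4 and between -0.61 and -0.55 in the other mutant pools. Such a gap is met by chance in about 1 in 20 groups. All 4 mutant pools were above the sibling pools for this gene. The shares for mutant replicate 4 in chrne (0.823), chrnb1 (0.770) and chrna1 (0.746) did not reach the critical value.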

How the results depend on the processing

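Calls of members changed without scaling between arrays, where 34 were higher instead of 68, and of the other transmission genes 37 were higher instead of 67 and 18 lower instead of 9. In that setting 6.67% of all genes were called higher and 51.1% lower. Against the median of the neuronal markers in place of the mean, 9 members were higher instead of 37 and 18 lower instead of 4 (1.28% and 78.8% of all genes). Relative to the mean of the neuronal markers, array weights gave 7 lower members instead of 4, and an adjusted p of 0.01 gave 2. The shares of all genes are not given here for those settings or for the replicate number as a block. Relative to the muscle markers, array weights called 1 muscle subunit higher and 3 lower (36.9% and 21.7% of all genes), where 0 were called before. Normexp called 1 member lower instead of 2 (24.3% of all genes). Leaving out 1 array at a time gave 66 to 68 members higher and 2 to 3 lower, and 31 to 38 higher and 3 to 6 lower relative to neurons. It gave 0 to 2 muscle subunits lower relative to muscle, and 64 to 69 other transmission genes higher and 8 to 10 lower. With all arrays, 29.9% of all genes were called higher and 27.8% lower. The shares were 6.57% and 59.9% relative to the neuronal mean, and 18.1% and 7.01% relative to muscle. Without scaling the sign of 10 members turned, 5 of which had been called higher, and in the other settings it turned only for members that were not called. It turned for chrne with array weights (0.18), without sibling replicate 2 (0.03) and without mutant replicate 4 (0.42; range over arrays left out -0.25 to 0.42), and with normexp for chrnb1 (0.051) and, relative to muscle, for chrnb1 (0.49) and chrng (0.37). With normexp 11 of the 68 higher members shrank by over 1.5 times, and 0 lost their call. With the replicate number as a block 66 members were higher and 2 lower, and the pools share only a number. The causes of these changes were not tested. Weak signal over background limits what can be said of gria1b and htr6, for which only bounds are given, and neither bound held with normexp.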
